A study of Homo sapiens with 6 samples.

Results

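The genes described here are 10 regulators and markers of the epithelial-mesenchymal transition (EMT): the transcription factor genes SNAI1, SNAI2, ZEB1, ZEB2, TWIST1 and TWIST2, the cadherin genes CDH1 and CDH2, and the mesenchymal marker genes VIM and FN1. They were chosen by name, and 10 of the 58735 rows of the deposited tables were theirs. RNA was sequenced from a wild-type line of triple-negative breast cancer cells, MDA-MB-231, which was stained with the membrane dye PKH26 and grown for 12 days in complete medium. Each division dilutes the dye. The 1% of cells that kept most PKH26 were sorted as slow-cycling cells (SCC, 3 libraries), and cells of moderate brightness, labelled PKH26 low in the sample characteristics, as rapid-cycling cells (RCC, 3 libraries). All 6 libraries come from 1 cell line, the labels call the replicates biological, and the groups share staining, growth and sorting. In such bulk samples, fewer cells expressing a gene and less RNA per cell cannot be told apart.

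In EMT, epithelial cells lose the junctions that hold a sheet together and gain motility and a fibroblast-like cytoskeleton. The SNAI zinc finger factors, the ZEB zinc finger factors and the TWIST helix-loop-helix factors repress epithelial genes, the best known being CDH1, which encodes E-cadherin. SNAI and ZEB proteins bind E-box DNA with the core CACCTG. CDH2 encodes N-cadherin, VIM the intermediate filament protein vimentin and FN1 the matrix protein fibronectin, all of which are commonly used as signs of the mesenchymal state. MDA-MB-231 is known as a strongly mesenchymal line, so the comparison asks how these genes differ within cells that already lack an epithelial form.

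Between SCC and RCC, SNAI1 and FN1 rose and the other 8 genes gave no call. SNAI1 was 2.71-fold higher in SCC and FN1 was 1.40-fold higher. SNAI2, ZEB1, ZEB2 and VIM were measured well and differed little, with log2 fold changes from -0.01 to 0.10. TWIST1, TWIST2, CDH1 and CDH2 were at or near 0 counts in both groups and were not tested.

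Some sequences help to place these genes. The first set shows DNA before the start of FN1, the higher marker gene, and of VIM, the marker gene without a call. Both come from RefSeq on GRCh38.p14, and capitals mark the cyclic AMP response element TGACGTCA.
FN1, chr2:215436173-215436318, minus strand: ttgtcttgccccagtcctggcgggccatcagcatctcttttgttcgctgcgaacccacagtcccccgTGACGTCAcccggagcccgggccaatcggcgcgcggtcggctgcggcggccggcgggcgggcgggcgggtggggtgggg
VIM, chr10:17227991-17228240, plus strand: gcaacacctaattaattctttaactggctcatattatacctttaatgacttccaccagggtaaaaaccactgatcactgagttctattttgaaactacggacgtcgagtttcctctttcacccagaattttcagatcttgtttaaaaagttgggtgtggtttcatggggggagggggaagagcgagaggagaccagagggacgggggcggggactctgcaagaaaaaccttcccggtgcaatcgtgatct

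Promoter windows of 300 bases (250 before and 50 after a start) were found for 6 of the 10 genes, namely ZEB1, ZEB2, TWIST2, CDH2, VIM and FN1. SNAI1, SNAI2, TWIST1 and CDH1 had no entry. Both strands were searched for CACCTG, TGACGTCA and the AP-1 motif TGAGTCA. TGACGTCA began 183 bases before the FN1 start and was in none of the windows of the other 5 genes. It was in 1.85% of all 35116 windows. CACCTG was in 2 of the 7 ZEB1 windows and in none of the windows of ZEB2, TWIST2, CDH2, VIM and FN1, against 20.6% of all windows. TGAGTCA was in none of the windows of the 6 genes, against 4.95% of all. These matches describe letters in the windows and are not measured binding sites.

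The second set shows the mature microRNAs of the MIR200CHG locus on chromosome 12, which in epithelial cells repress ZEB1 and ZEB2. Capitals mark the seed, bases 2 to 8, which differs between the 2 microRNAs.
hsa-miR-200c-3p: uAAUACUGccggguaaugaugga
hsa-miR-141-3p: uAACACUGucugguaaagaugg
The host gene MIR200CHG (ENSG00000257084, chromosome 12, 6963246 to 6964447) had 0 counts in each of the 6 libraries. Mature microRNAs were not measured.

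The libraries held 17655855 to 27831824 counts. SCC replicate 1 was the deepest and stood apart in base composition. In the tenth of genes with the highest GC content its median deviation from the average library was 0.40 on the log2 scale, and the other 5 lay between -0.16 and 0.03. In the tenth with the lowest GC content it was -0.24, against -0.03 to 0.10. Values without this library are given beside the results that it moved most. The line's markers VIM, CD44, EGFR, AXL, MSN and CAV1 were all tested, with 0 of 6 called. Of the receptors that define the triple-negative class, ESR1 had 5 to 16 counts per library, PGR 0 to 3, and ERBB2 was at a mean of 7.74 FPKM (a level scaled by gene length and library size).

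**Figure D1:**
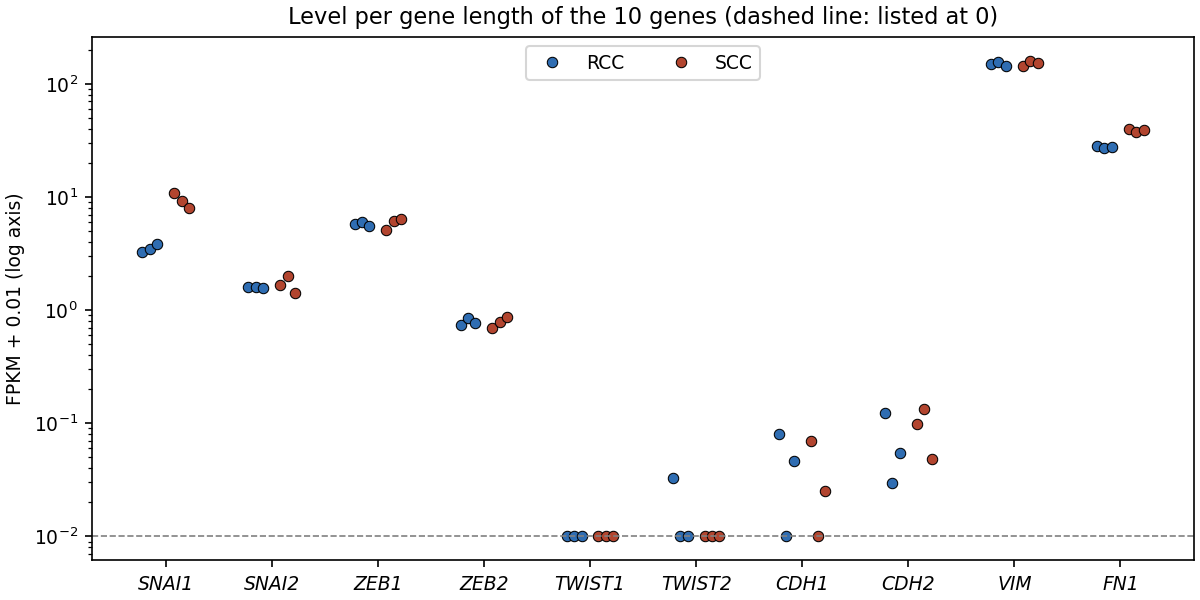
Level of each of the 10 genes per library, as deposited FPKM plus 0.01 on a log axis, with 3 RCC (blue) and 3 SCC (red) points per gene. VIM and FN1 sit highest, TWIST1 lies on the dashed line that marks 0 in all 6 libraries, and SNAI1 and FN1 are the genes above 1 FPKM whose groups do not overlap.

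The genes spanned a wide range of levels. By FPKM, averaged over the 6 libraries, VIM was highest at 151, above 98.7% of the 15881 tested genes, followed by FN1 at 33.3 (above 91.2%). SNAI1 was next at 6.44, then ZEB1 at 5.82, SNAI2 at 1.63 and ZEB2 at 0.777. This order rests on the gene lengths used for FPKM, 25058 bases for ZEB2, 17315 for FN1 and 8650 for ZEB1. The lengths were 5158 bases for VIM, 3392 for SNAI2 and 1686 for SNAI1. By CPM, which is not divided by length, ZEB2 was above SNAI2 (19.5 against 5.75 in SCC, 19.6 against 5.35 in RCC). CDH2 was at 0.0713 and CDH1 at 0.0300 FPKM, and their ranges over the libraries overlapped. By FPKM, the order of SNAI1 and ZEB1 depended on the group. In SCC, SNAI1 was at 9.38 ± 1.46 FPKM and ZEB1 at 5.88 ± 0.662 (SD, n = 3), and in RCC SNAI1 was at 3.50 ± 0.279 and ZEB1 at 5.76 ± 0.189 (SD, n = 3). The libraries of the 2 genes did not overlap in either group.

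SNAI1 (ENSG00000124216, chromosome 20, 49982999 to 49988886), a direct repressor of CDH1 that acts early in EMT, had 503, 306 and 285 counts in SCC replicates 1 to 3. In RCC replicates 1 to 3 it had 127, 121 and 115. As CPM (library-scaled counts, with TMM factors) these were 18.7, 15.6 and 13.5 in SCC and 5.52, 5.78 and 6.43 in RCC. Every SCC library was above every RCC library. SCC over RCC gave a log2 fold change of 1.44 (SE 0.146, 95% interval 1.12 to 1.76), and edgeR's quasi-likelihood test gave an adjusted p of 3.8e-04. By p-value, SNAI1 ranked 36 among the tested genes. SCC replicate 1 had the highest value, and without it the log2 fold change was 1.31 (adjusted p 1.5e-07). The gene has a GC content of 58.2%, and with an offset for GC content the log2 fold change was 1.29 (adjusted p 5.3e-06). No other annotated gene overlaps SNAI1.

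SNAI2 (ENSG00000019549, chromosome 8, 48917604 to 48921740) encodes the related repressor SLUG. It had 5.68, 6.75 and 4.84 CPM in the SCC libraries and 5.39, 5.35 and 5.31 in the RCC libraries. The RCC values lay inside the SCC range. The log2 fold change was 0.10 with a 95% interval of -0.25 to 0.46 (adjusted p 0.744), so differences beyond 1.37-fold higher or a fold of 0.84 fell outside the interval. The ratio of SNAI1 to SNAI2 in FPKM was 6.61, 4.66 and 5.62 in SCC and 2.06, 2.17 and 2.44 in RCC. These ratios did not overlap. A 2-sided exact permutation test gave p = 0.1, its minimum for 3 against 3.

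ZEB1 (ENSG00000148516, chromosome 10, 31318495 to 31529814) and ZEB2 (ENSG00000169554, chromosome 2, 144364364 to 144524583) encode the repressors held in a mutual loop with the miR-200 family. ZEB1 was at 5.14, 6.11 and 6.40 FPKM in the SCC libraries and 5.73, 5.97 and 5.59 FPKM in the RCC libraries. For ZEB2 the levels were 0.685, 0.780 and 0.857 FPKM (SCC) and 0.734, 0.840 and 0.762 FPKM (RCC). Both pairs of groups overlapped, and SCC replicate 1 was the lowest library for each gene. The log2 fold change of ZEB1 was 0.03 (95% interval -0.16 to 0.23, adjusted p 0.856) and that of ZEB2 was -0.01 (95% interval -0.24 to 0.23, adjusted p 0.982). Both genes are poor in GC, at 38.5% and 39.1%, where SCC replicate 1 was low overall. Without that library the log2 fold changes were 0.12 and 0.07, and with the GC offset 0.15 and 0.11, none of them past the threshold (adjusted p 0.333, 0.743, 0.172 and 0.544). The ratio of ZEB1 to ZEB2 in FPKM averaged 7.60 ± 0.207 (SCC) and 7.41 ± 0.357 (RCC; SD, n = 3), and a 2-sided exact permutation test gave p = 0.4.

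The antisense RNAs at these loci share exon bases with their partners, and the use of strand in counting is not stated. ZEB1-AS1 averaged 2.83 ± 0.996 CPM (SCC) and 2.96 ± 0.605 CPM (RCC; SD, n = 3), beside 51.2 CPM for ZEB1 in SCC. VIM-AS1 averaged 2.13 ± 0.410 and 2.42 ± 0.306 CPM, beside 795 for VIM in SCC. ZEB2-AS1 had 0, 6 and 1 counts in SCC and 2, 0 and 0 in RCC. ZEB1-AS1 and VIM-AS1 were tested and not called (adjusted p 0.935 and 0.661).

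TWIST1 (ENSG00000122691, chromosome 7, 19020991 to 19117672), which encodes a factor of mesoderm formation, had 0 counts in all 6 libraries. At these depths 0 counts allow a level of up to 0.108 to 0.170 CPM, taken as 3 counts of a library's total. TWIST2 (ENSG00000233608, chromosome 2, 238848032 to 238910543) had 1 count, in RCC replicate 1, and 0 in the other 5 libraries. A difference in either gene was not detectable at this depth.

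CDH1 (ENSG00000039068, chromosome 16, 68737225 to 68835548) had 10, 0 and 2 counts in SCC and 10, 0 and 4 in RCC. The highest value, in RCC replicate 1, was 0.440 CPM of the unscaled total (95% Wilson interval 0.239 to 0.809). Replicate 1 was highest and replicate 2 at 0 in both groups. CDH2 (ENSG00000170558, chromosome 18, 27950966 to 28177446) had 12, 12 and 4 counts in SCC and 13, 2 and 4 in RCC. Its highest value, in SCC replicate 2, was 0.615 CPM of the unscaled total (95% Wilson interval 0.352 to 1.08). These intervals cover counting error only. A difference in either cadherin was not detectable at this depth. The log2 ratio of CDH2 to CDH1 could be formed in the 4 libraries with CDH1 counts, at 0.58 and 1.32 in SCC and 0.70 and 0.32 in RCC. The 2-sided exact permutation p was 0.667, and 2 against 2 libraries cannot reach 0.05.

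VIM (ENSG00000026025, chromosome 10, 17228259 to 17237593), the filament gene, had 759, 835 and 791 CPM in the SCC libraries, and 776, 799 and 752 in the RCC libraries. The groups overlapped, with SCC replicate 2 highest and RCC replicate 3 lowest. The log2 fold change of 0.04 (SE 0.0632) had a 95% interval of -0.10 to 0.17 (adjusted p 0.777). With 101496 counts in all, this was the most deeply measured of the genes, and changes above 1.13-fold lay outside the interval.

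FN1 (ENSG00000115414, chromosome 2, 215360440 to 215436172), whose promoter stretch is printed above, had 699, 648 and 681 CPM in the SCC libraries, and 497, 469 and 481 in the RCC libraries. All SCC libraries were above all RCC libraries. SCC exceeded RCC by a log2 fold change of 0.49 (SE 0.0618, 95% interval 0.35 to 0.62; edgeR adjusted p 0.00167). The gene ranked 72 among the tested genes by p-value. Without SCC replicate 1 the log2 fold change was 0.46 (adjusted p 4.1e-08), and no other annotated gene overlaps FN1. The ratio of FN1 to VIM in FPKM averaged 0.254 ± 0.0218 (SCC) and 0.185 ± 0.00914 (RCC; SD, n = 3), without overlap (2-sided exact permutation p 0.1).

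**Figure D2:**
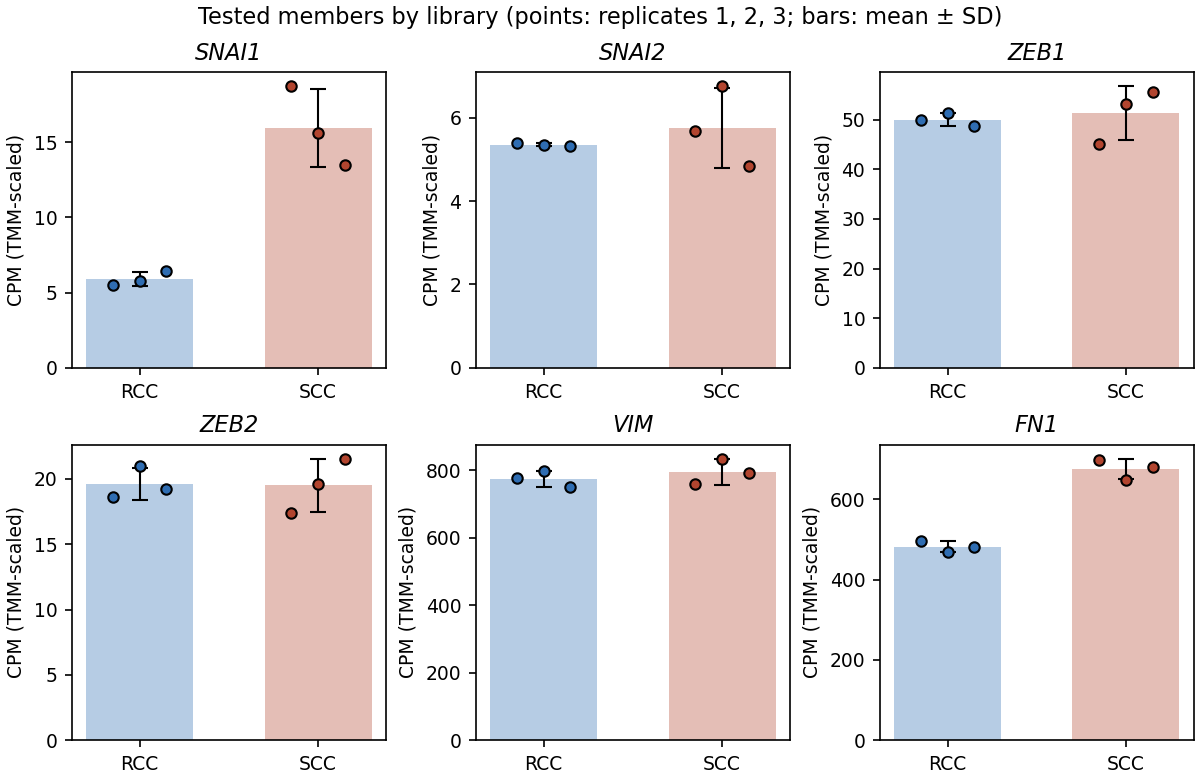
TMM-scaled CPM of the 6 tested genes in each library (points, replicates 1 to 3 from left to right), with bars for the mean and error bars for the SD over 3 libraries. The SCC points of SNAI1 (13.5 to 18.7) and FN1 (648 to 699) lie above all RCC points, and those of SNAI2, ZEB1, ZEB2 and VIM overlap with RCC.

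Of the 10 genes, 6 passed the filter on low counts. Of these 6, 2 were called higher and 0 lower, and the same 2 had an unadjusted p under 0.05. DESeq2 also called 2 higher and 0 lower. Among all 15881 tested genes 1.69% were called higher, 0.378% lower and 2.07% in either direction, and 19.7% had an unadjusted p under 0.05. The groups did not overlap for the 2 called genes, nor for 27.8% of the tested genes as a whole. The median log2 fold change of the 6 genes was 0.07, beside 0.00 for all tested genes. These shares are a description.

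**Figure D3:**
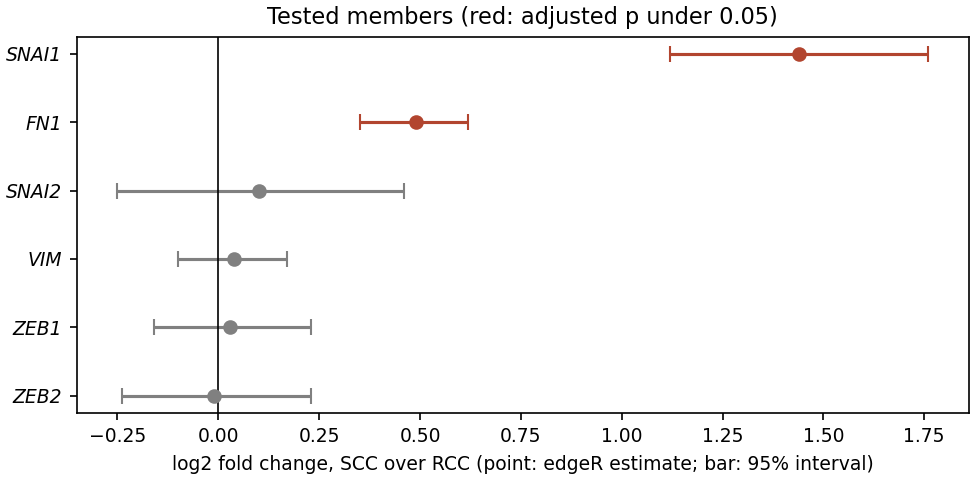
Log2 fold change of SCC over RCC for the 6 tested genes, with edgeR's estimate as points and 95% intervals as bars. SNAI1 (1.44) and FN1 (0.49) have intervals above 0, and the intervals of SNAI2, VIM, ZEB1 and ZEB2 include 0.

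Other genes of the EMT programme were taken from lists chosen with earlier results of these data known. Among 16 further EMT-linked transcription factor genes, 13 were tested, 2 were called higher and 0 lower, with a median log2 fold change of 0.12. At an unadjusted p under 0.05 there were 2 higher and 1 lower. The lower gene, HMGA2, was at 156 ± 2.76 CPM (SCC) and 182 ± 12.2 CPM (RCC; SD, n = 3). It was not called (log2 fold change -0.22, edgeR adjusted p 0.127). FOXC1, a forkhead factor, had 19.4, 16.0 and 16.6 CPM in the SCC libraries and 10.5, 10.9 and 12.7 in the RCC libraries (log2 fold change 0.61, edgeR adjusted p 0.0284). SOX4, an HMG-box factor downstream of TGF-beta, was at 41.6, 32.5 and 33.8 CPM against 26.6, 24.1 and 24.2 (0.53, adjusted p 0.0338). SOX4 shares exon bases with an antisense gene. TCF3, the list's most abundant gene by FPKM, was at 173 ± 36.5 and 146 ± 3.18 CPM (SD, n = 3) and was not called (log2 fold change 0.25, adjusted p 0.274). SCC replicate 1 was the highest library for TCF3, and without it the log2 fold change was 0.07 (0.05 with the GC offset). FOXC2, GSC and TBXT had 4 counts or fewer in every library.

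The next lists hold genes whose products act with or on SNAI and ZEB proteins. None of their tested genes was called by edgeR with the filter on low counts and all 6 libraries. All 18 corepressor genes were tested, with a median log2 fold change of 0.01, and at an unadjusted p under 0.05 there were 4 higher and 1 lower. DESeq2 called 0 of them. LOXL2, a lysyl oxidase that stabilises SNAI1 protein, came closest to a call, at a log2 fold change of 0.27 (adjusted p 0.103). It shares exon bases with ENTPD4, a gene on the same strand. LOXL2 was called without SCC replicate 1 (0.20, adjusted p 0.0125), without SCC replicate 2 (0.32, adjusted p 0.0354) and in the fit of every gene with at least 1 count (0.28, adjusted p 0.0241), which called 2 corepressor genes higher. HDAC1, a histone deacetylase recruited by SNAI1, was the most abundant by FPKM (-0.02, adjusted p 0.895). Of 15 genes for SNAI protein stability and localisation, 14 were tested and 0 were called by edgeR or DESeq2, with a median of -0.02. At an unadjusted p under 0.05 there were 1 higher and 2 lower. USP27X, a deubiquitinase that stabilises SNAI1, came closest, averaging 0.888 ± 0.316 CPM (SCC) and 1.60 ± 0.364 CPM (RCC; SD, n = 3; adjusted p 0.208). SLC39A6, a zinc transporter linked to SNAI1 entry into the nucleus, was the most abundant (log2 fold change -0.05, adjusted p 0.728).

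No tested gene of the epithelial lists was called lower in SCC. Among all tested genes, 0.378% were called lower and 1.69% higher. Of 29 junction and keratin genes, 25 were tested, 2 were called higher and 0 lower. An unadjusted p under 0.05 was reached by 10 genes, all higher, against 19.7% of all tested genes in either direction. The median log2 fold change was 0.17, or 0.10 without SCC replicate 1. SPINT2, an inhibitor of membrane serine proteases, had 226, 205 and 217 CPM against 163, 172 and 165 (log2 fold change 0.37, adjusted p 0.0147). MAL2, a gene of apical transport, was at only 1.04, 1.23 and 1.04 CPM against 0.304, 0.239 and 0.280 (1.98, adjusted p 0.024). It had 28, 24 and 22 counts in SCC and 7, 5 and 5 in RCC. The RCC libraries were under the filter on low counts, so MAL2 was tested only through the group where it is higher. MAL2 shares exon bases with MAL2-AS1, and SPINT2 with AC011479.1. KRT7, a simple epithelial keratin and the most abundant of the list by FPKM, was at 556 ± 82.3 and 454 ± 4.84 CPM (SD, n = 3) and was not called (log2 fold change 0.29, adjusted p 0.132). KRT7 was called without SCC replicate 1 (0.17, adjusted p 0.0205) and without SCC replicate 2 (0.35, adjusted p 0.0466), and in the fit of every gene with at least 1 count (0.30, adjusted p 0.00534). With the GC offset the log2 fold change of KRT7, a gene of 62.9% GC, was 0.07 (adjusted p 0.473).

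Of 14 epithelial transcription and splicing factor genes, 8 were tested and 0 called, with a median of 0.29. At an unadjusted p under 0.05 there were 4 higher and 0 lower, and DESeq2 called 3 higher. KLF5 had the smallest p and the highest FPKM, averaging 43.4 ± 3.32 CPM (SCC) and 34.1 ± 2.49 CPM (RCC; SD, n = 3; log2 fold change 0.35, adjusted p 0.0788). KLF5 was called by DESeq2 (adjusted p 0.0400). ESRP1, which sets epithelial splicing, had 1 to 15 counts per library, and GRHL2, which opposes ZEB1, had 8 counts in RCC replicate 1 and 0 or 1 elsewhere.

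Among 17 cadherin, catenin and adherens junction genes, 13 were tested, 2 were called higher and 0 lower, with a median of 0.01. CDH11, a mesenchymal cadherin, had 116 CPM in each SCC library, against 93.4, 90.4 and 91.0 (log2 fold change 0.34, adjusted p 0.0217). At a mean of 7.70 FPKM it was far more abundant than CDH1 or CDH2, as was CDH4 at 8.28 FPKM, which was not called (0.01, adjusted p 0.969). JUP, which encodes the junction protein plakoglobin, was at 94.8, 68.7 and 76.2 CPM against 54.3, 50.2 and 48.9 (0.64, adjusted p 0.0135). SCC replicate 1 was its highest library, and over 17 alternatives its log2 fold change ranged from 0.44 to 0.73. CTNNA1, which links cadherins to actin, was the most abundant by FPKM and was not called (-0.06, adjusted p 0.607). CDH11 shares exon bases with AC010533.1.

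Of 32 other mesenchymal markers, 21 were tested, 1 was called higher and 0 lower, with a median of 0.14. An unadjusted p under 0.05 was reached by 8, all of them higher, against 19.7% of all tested genes in either direction. LOX, the collagen cross-linking lysyl oxidase, had 29.3, 26.0 and 28.6 CPM against 19.5, 20.2 and 18.8 (log2 fold change 0.52, adjusted p 0.0146). It shares exon bases with SRFBP1. NT5E, the ecto-enzyme CD73 and the most abundant by FPKM, was not called (-0.03, adjusted p 0.825). Of 15 partners of vimentin and fibronectin, 14 were tested and 0 called, with a median of 0.19, or 0.09 without SCC replicate 1. At an unadjusted p under 0.05 there were 4 higher and 1 lower, and DESeq2 called 1 higher. SDC4, a syndecan that binds fibronectin, came closest to a call (0.24, adjusted p 0.0948). PLEC, which encodes the filament linker plectin, was the most abundant (0.37, adjusted p 0.248). PLEC was at 3867 CPM in SCC replicate 1 and between 2091 and 2507 CPM in the other 5 libraries. Its log2 fold change was 0.10 without that library (adjusted p 0.389) and 0.04 with the GC offset (adjusted p 0.736), and the fit of every gene with at least 1 count called it (0.38, adjusted p 9.0e-06).

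The 7 called genes of these lists, FOXC1, SOX4, SPINT2, MAL2, JUP, CDH11 and LOX, lost their calls in some fits. The log2 fold change of MAL2 ranged from 0.29 to 2.09 over the 14 alternatives that tested it. Without RCC replicate 1, 2 or 3 none of the 7 was called, with adjusted p from 0.0648 to 0.181, and SNAI1 and FN1 were called in each of these fits. The log2 fold changes there were 0.32 to 0.34 for CDH11, 0.49 to 0.54 for LOX, 0.35 to 0.39 for SPINT2 and 0.60 to 0.68 for JUP, and over all genes 99 to 103 were called higher. On log2(FPKM + 1), FOXC1 (adjusted p 0.0715), SOX4 (0.0971) and JUP (0.0737) were not called by limma, nor on log2(FPKM + 0.1), and without a filter none of the 7 was called. Without SCC replicate 3, JUP was the only one of the 7 that was called. Without SCC replicate 1 more genes passed over all genes, 642 higher and 343 lower against 268 and 60 in the main fit. Within the lists, 4 of the junction and keratin genes and 4 of the mesenchymal markers were higher in that fit. So were 3 cadherin and catenin genes, 2 epithelial factors, 2 partners and 1 corepressor, while 1 EMT-linked factor and 1 partner were lower.

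**Figure D4:**
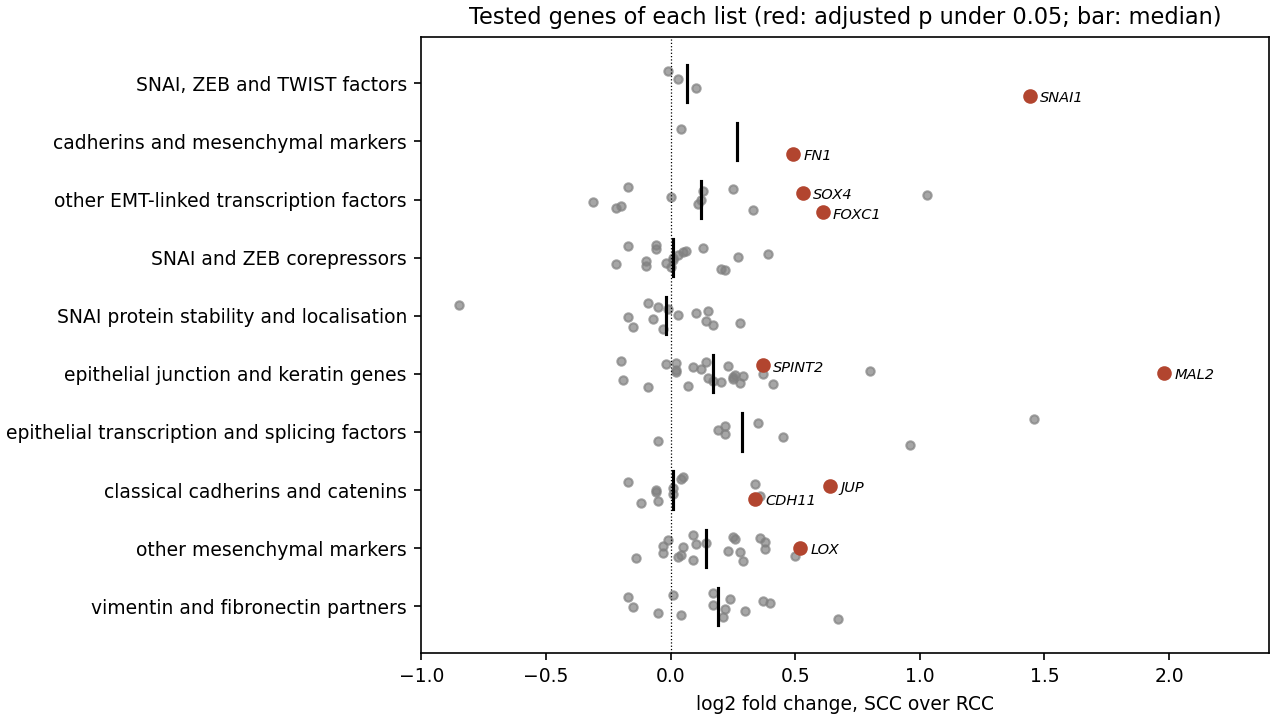
Log2 fold change of SCC over RCC for every tested gene of the 10 EMT genes and of 8 further lists, with called genes in red and named, and a bar for each list's median. SNAI1 (1.44) is the highest point of the SNAI, ZEB and TWIST factors tested, in a list without SNAI3. No plotted gene was called lower, against 0.378% of all tested genes.

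Markers of blood, vessel and stromal cells were low, and luminal keratins were not. Summed over its genes, the endothelial list gave 3.32 to 3.73 CPM (SCC) and 3.15 to 3.92 (RCC). Of the leukocyte markers, PTPRC was at 0.256 to 1.97 CPM (SCC) and 0.143 to 0.559 (RCC), and CSF1R at 0.927 to 1.66 and 0.839 to 0.913. The fibroblast list was at 11.3 to 12.4 and 10.3 to 11.6 CPM, nearly all of it PDGFRB. The erythroid list was at 0.0371 to 0.0949 and 0.0435 to 0.112 CPM. Only 1 of 3 endothelial, 1 of 5 fibroblast and 0 of 2 erythroid markers passed the filter on low counts. The rest were not tested and could not be called. PECAM1, PDGFRB, PTPRC and CSF1R were tested and not called by edgeR with that filter. PTPRC was called in the fit of every gene with at least 1 count (log2 fold change 1.83, adjusted p 0.0140) and was at 0.79 without SCC replicate 1 (adjusted p 0.602). The basal epithelial list gave 1.89 to 2.45 CPM (SCC) and 0.280 to 0.869 (RCC), mostly TP63 (log2 fold change 1.46, adjusted p 0.0853), and the luminal list at 767 to 868 and 663 to 699. KRT5 was at 0 in all 6 libraries. Of the basal list 1 of 5 genes was tested and of the luminal list 8 of 10, and none was called by edgeR with that filter. TP63 had only 39, 28 and 37 counts in SCC and 17, 14 and 4 in RCC. It was called in 4 of 14 alternatives (adjusted p 0.0439 by DESeq2 and 0.0335 with the GC offset). KRT8, at 425, 387 and 390 CPM against 326, 343 and 335, was called in 3 of 17 (adjusted p 0.0376 by DESeq2 and 0.00239 without SCC replicate 1). The part of these markers in the values of SNAI1 and FN1 was not tested.

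The genes most like SNAI1 and FN1 over the 6 libraries were sought among 9653 genes with a mean of at least 10 CPM, by Pearson r of log2 CPM. All points share their libraries and depths, and r is given as a description. For SNAI1 these were PER1, a clock gene (r 0.9994), KLF4, a zinc finger factor gene (0.9985), and MAML2, a Notch coactivator gene (0.9966). PER1 averaged 32.1 CPM (SCC) and 13.0 (RCC), and KLF4 at 43.7 and 23.9. MAML2 differed less, at 26.5 and 23.3 CPM (log2 fold change 0.19, adjusted p 0.249). For FN1 they were BRD2, a bromodomain gene (0.9981), HLA-B, which has near-identical copies and is uncertain (0.9979), and TNFAIP3, an inhibitor of NF-kB (0.9965). TNFAIP3 averaged 30.2 CPM (SCC) and 6.01 (RCC), a log2 fold change of 2.33. An r above 0.95 was found for 185 genes with SNAI1 and 157 with FN1.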

How the data were processed

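Per the submitters' processing notes, HISAT2 2.0.5 and featureCounts 1.5.0-p3 were used. The genome build, strand setting and filters are not given in the sources used here. The authors deposited whole-number counts per gene and FPKM per gene. All 58735 rows matched GENCODE 29 on GRCh38 by ID and position, and 27 names turned into dates were restored. Each deposited FPKM value was the count divided by gene length and 1 constant per library.

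Counts were filtered (filterByExpr, minimum count 10) and scaled by TMM. SCC was tested against RCC with edgeR 4.0.16 in R 4.3.3 (quasi-likelihood F test on group, 2-sided). Benjamini-Hochberg adjustment was over 15881 genes, and an adjusted p under 0.05 was called. The method was also run on simulated counts, with the same dispersion for every gene and no drift with GC content. Intervals are 95% and use the test's degrees of freedom. Alternatives used DESeq2 1.42.0, limma 3.58.1 with trend on log2(FPKM + 1) or log2(FPKM + 0.1), other scalings and filters, a GC offset (lowess, span 0.3, GC of each gene's longest transcript), a block on the replicate number, and fits that left out 1 library.

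The 10 genes and 17 lists were chosen with earlier results of these data known. Named were the 10 genes. From each list came the called genes (at most 5), or the smallest p if none was called, and the highest FPKM. Genes that overlap a member were named as well. Exon bases are also shared with another annotated gene by LOXL2, KRT7, KRT8, CTNNA1, ERBB2, PER1, BRD2, MAML2, HLA-B, TNFAIP3, TWIST1, CDH1 and CDH2. For called members, the 3 most similar genes were added. Genes named outside this rule (among them CDH4, ESRP1, GRHL2, FOXC2, GSC, TBXT, HMGA2, ESR1 and PGR) were chosen after their values were seen. The labels name no pairing of the libraries by replicate number. Correlations of deviations between libraries of the same number were -0.01, 0.02 and -0.08, which with 3 libraries per group cannot exclude a pairing. The summed level of the leukocyte list is not reported here.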

Additional observations from a re-analysis of the deposited data

How the results depend on the processing

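SNAI1 and FN1 were called higher under all 17 alternatives, with log2 fold changes of 1.20 to 1.53 and 0.46 to 0.57 and adjusted p of at most 0.0374 and 0.0367. Over all genes, 268 were called higher and 60 lower. DESeq2 gave 480 and 170, every gene with at least 1 count 995 and 315, log2(FPKM + 1) 130 and 36, log2(FPKM + 0.1) 117 and 34, log2(FPKM + 1) without a filter 48 and 1, and the GC offset 523 and 245. Whether the replicate numbers pair the libraries is not known. A replicate block gave 350 higher and 106 lower, with the block and the GC offset 621 and 432, and neither changed a call of the 10 genes. Leaving out 1 library gave 99 (RCC replicate 1 or 2) to 642 higher (SCC replicate 1) and 8 (RCC replicate 1) to 343 lower (SCC replicate 1). The log2 ratio of CDH2 to CDH1 differed by 0.44, with 0.07 to 0.81 over the fits without 1 library.

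Signs turned only for values near 0 that were not called. With the GC offset these were ZEB2 (0.11), SLC39A6 (0.03), NT5E (0.01) and PDGFRB (-0.03), with the block and the GC offset ZEB2 (0.10), SLC39A6 (0.03), NT5E (0.01) and PDGFRB (-0.03), and with every gene of at least 1 count ZEB2 (0.00). Without 1 library, SNAI2 ranged from -0.04 to 0.20, ZEB1 from -0.04 to 0.12, ZEB2 from -0.09 to 0.07, VIM from -0.02 to 0.07, HDAC1 from -0.07 to 0.02, NT5E from -0.08 to 0.03 and PECAM1 from -0.03 to 0.27. The cause was not tested. Depth limits CDH1, CDH2, TWIST1 and TWIST2.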

Other observations

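SNAI3, the third SNAI gene, had 62, 24 and 8 counts in SCC and 9, 21 and 10 in RCC. SCC replicate 1 was alone in its level, and the gene was not called (log2 fold change 1.03, edgeR adjusted p 0.336). PTPRC, the leukocyte marker CD45, was at 1.97, 0.256 and 0.711 CPM in SCC and at 0.174, 0.143 and 0.559 in RCC, again with SCC replicate 1 highest (adjusted p 0.206).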
